A study of Rattus norvegicus with 79 samples.

Results

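The comparison sets 2 groups of 24-month-old male Fisher-344 rats against each other, both trained to find a hidden platform in a water maze: 16 rats whose sample titles carry the letter B, and 13 rats whose titles carry a U, for unimpaired learners. Membership was read from the titles alone, and the 29 arrays are part of 79 in the whole series, with 1 array per animal. The labels explain the letters I and U, and a further B in every title that stands for the CA1 region, but not the B in the place of I or U, so nothing about how the B rats learned is known here. Every rat of both groups swam to a hidden platform, was killed 24 hours after its last trial, and gave RNA from a 300 µm punch of the CA1 cell layer that went through repeated amplification before labelling. The other aged rats of the series were 10 hidden platform rats labelled impaired, 8 yoked rats that swam with no platform, 8 rats trained with a visible platform and 5 cage controls. Age, strain, sex and task were the same in the B and the unimpaired group. A punch holds whatever cells lie in it, so fewer cells of a type and less RNA per cell cannot be told apart in any value given here.

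CA1 is the output field of the hippocampus proper, where pyramidal neurons receive the Schaffer collaterals of CA3 and pass the signal on to the subiculum and cortex. Lesions of the hippocampus impair the hidden platform task, in which a rat must use distant cues, far more than the visible one, and aged rats vary widely in how well they learn it. Genes switched on by activity return towards resting levels within hours, so a sample taken the day after training reads mainly the state of the tissue outside the acute response.

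Among the genes that mark CA1 pyramidal neurons, Nrgn, which encodes the calmodulin-binding protein neurogranin, had a median signal of 15018 in B and 17389 in unimpaired arrays. Hpca, which encodes the calcium sensor hippocalcin, had medians of 11355 and 12583. Itpka, also measured, had medians of 5766 in B and 5605 in unimpaired arrays, and a dimmer Nrgn probe set 7529 and 7435. In the fit described below, the log2 differences of these 3 markers at their brightest probe sets ran from -0.23 to -0.01. The probe set for Camk2a was too dim to be tested, and the array had no probe set for Wfs1. Markers of dentate and CA3 neurons (3 of 6 genes measured), interneurons (5 of 6), oligodendrocytes (4 of 5), astrocytes (3 of 5), microglia (2 of 5), endothelium (3 of 5), mural cells (4 of 5), choroid plexus and ependyma (2 of 5) and blood (2 of 6) were all present at levels that overlapped between the groups. Itgam, Gja1, Aqp1 and S100a8, which mark microglia, astrocytes, choroid plexus and myeloid cells, had group medians between 6.4 and 25.7, near background. None of the marker genes passed the test described next.

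Of 5 measures of array quality, 1 differed between the groups. The mean log2 signal of 9 spike-in control probe sets, microbial sequences added in the laboratory, was 10.43 ± 0.72 (SD, n = 16) in B and 11.46 ± 0.96 (SD, n = 13) in unimpaired arrays. The difference of -1.03 had a permutation p of 0.00178 (two-sided, 100000 resamples), or 0.0089 after Benjamini-Hochberg adjustment over the 5 measures, and 12 of the 16 B arrays lay below the lowest unimpaired array. The median Spearman correlation of an array with the other arrays was 0.923 in B and 0.909 in unimpaired arrays (adjusted permutation p = 0.399). Unimpaired array 81, at 0.785, was the only array of the 29 under 0.85. The gap can be seen in the plot of that signal by animal number. Its part in the gene differences was not tested, and fits that hold this level as covariate are given beside the main calls.

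**Figure D1:**
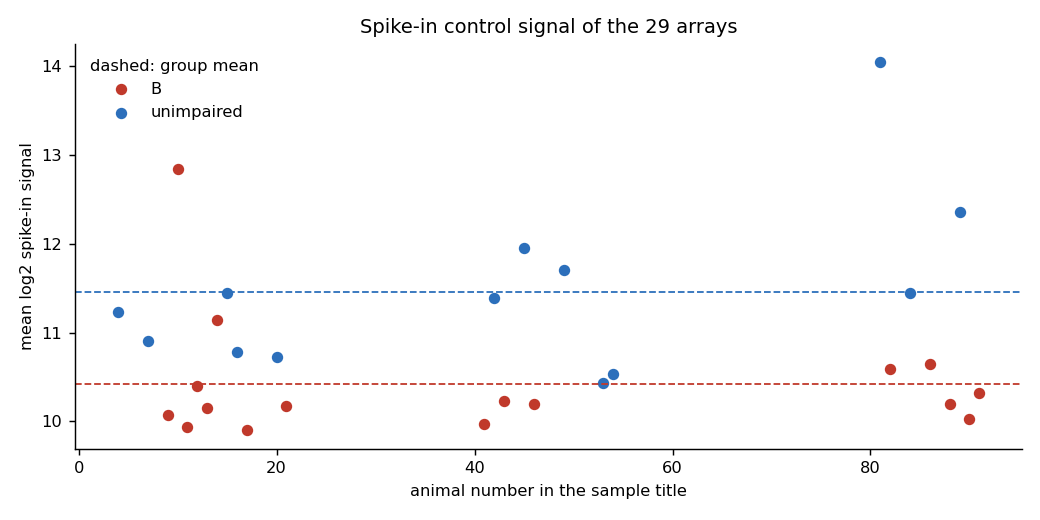
The mean log2 signal of the spike-in control probe sets (vertical axis) is plotted for each of the 29 arrays against the animal number in its title (horizontal axis), with dashed lines at the group means. Most B arrays sit below the unimpaired ones, and B array 10 at 12.84 and unimpaired array 81 at 14.04 are the highest of their groups.

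The B and unimpaired rats differed at few probe sets once all aged groups shared 1 estimate of spread. In limma's fit over the 60 aged arrays, 3 of 5244 probe sets (0.0572%) passed an adjusted p of 0.05, with 2 higher (0.0381%) and 1 lower (0.0191%) in B rats. A probe set for Sparc and a probe set for Ina rose in B rats, and a probe set without a gene symbol fell. With each gene represented by its brightest probe set, 0 of 3233 genes passed, while 217 (6.71%) had an unadjusted p under 0.05, 143 of them higher (4.42%) and 74 lower (2.29%) in B rats. After quantile normalization or median centring of the arrays, the Sparc probe set alone passed. The p-values set each difference against the spread between arrays. With 1 array per animal, that spread mixes differences between animals with those of amplification and hybridisation. At no probe set did the 16 B arrays and the 13 unimpaired arrays fail to overlap.

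Sparc encodes a secreted glycoprotein of the extracellular matrix that brain astrocytes and blood vessels make. Its called probe set (rc_AA946313_s_at) had signals from 266 to 1826 with a median of 1004 in B arrays, and from 243 to 587 with a median of 377 in unimpaired arrays. Of the 16 B arrays, 15 lay above the highest unimpaired array, and B array 82, at 266, lay among the unimpaired ones. The difference was 1.33 ± 0.21 (SE) on the log2(signal + 15) scale, on which the change of dim genes is understated, with an adjusted p of 0.000149. It was 1.43, 1.42 and 1.19 within the low, middle and high runs of animal numbers, and 1.31 in a fit of the 29 arrays that took the spike-in level as covariate (adjusted p = 0.00616). The medians of the other aged groups were 314 in impaired, 426 in yoked, 738 in visible platform and 441 in cage control rats.

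Ina encodes alpha-internexin, an intermediate filament protein of neurons that assembles with the neurofilament subunits in axons. Its called probe set (M73049_at) ranged from 647 to 2715 with a median of 1806 in B arrays, and from 125 to 1056 with a median of 853 in unimpaired arrays. The groups overlapped, with 13 of 16 B arrays above the highest unimpaired array and B array 10 the lowest of its group. The difference was 1.23 ± 0.26, with an adjusted p of 0.0299, and it was 0.99 with an adjusted p of 0.132 when the spike-in level was a covariate in the 29 arrays. The call held in 14 of 29 fits that each left out 1 array. The medians in impaired, yoked, visible platform and cage control rats were 514, 1008, 1063 and 645.

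The probe set without a symbol (rc_AA957961_at) was the one that fell. It ranged from 136 to 949 with a median of 188 in B arrays and from 274 to 841 with a median of 500 in unimpaired arrays. B array 10, at 949, was above every unimpaired array, while 12 of the 16 B arrays were below the lowest of them. The difference was -1.13 ± 0.24 (adjusted p = 0.0299), and -0.73 (adjusted p = 0.133) with the spike-in covariate in the 29 arrays, and the call held in 13 of 29 fits that left out 1 array. Impaired, yoked, visible platform and cage control rats had medians of 532, 589, 343 and 422.

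**Figure D2:**
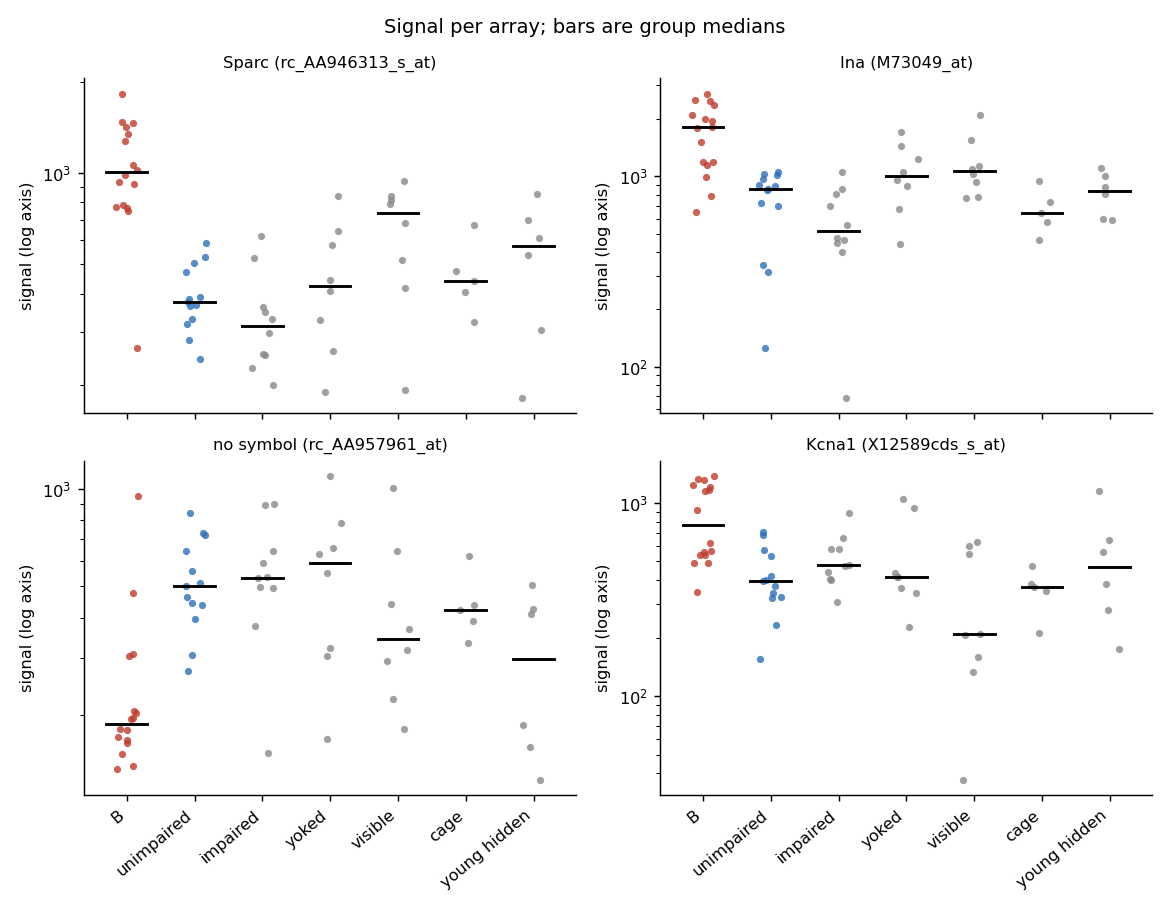
Signals on a log axis (vertical) are shown for each array of the 6 aged groups and of young hidden platform rats, for the 3 probe sets past the threshold and for the brighter Kcna1 probe set, with bars at group medians. The B median of 1004 at the Sparc probe set stands above those of all 6 other groups shown, and the 2 groups compared overlap in every panel.

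The other probe sets of the 2 named genes did not share these differences. The brightest Sparc probe set, with a mean signal of 12511 over all arrays, differed by -0.29 ± 0.29, and a further one of similar brightness to the called set by 0.22 ± 0.18. For Ina, the brighter probe set differed by 0.15 ± 0.31, with medians of 2967 in B and 2534 in unimpaired arrays. Each call therefore belongs to 1 probe set, and a difference of the whole gene's transcript was not shown. Which part of each transcript the probes read is not given in the sources used here.

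**Figure D3:**
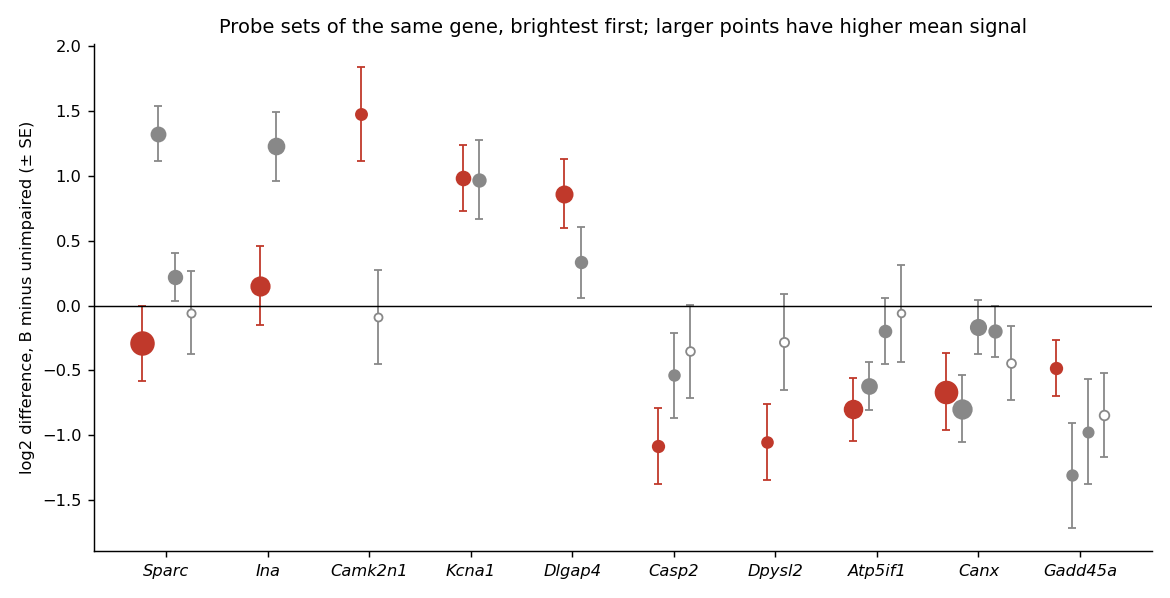
For 10 genes, each probe set's log2 difference of B minus unimpaired rats (vertical axis, bars are SE of the 60-array fit) is plotted from the brightest probe set (red) to the dimmest (grey), with open circles for those too dim to be tested. The probe sets of Kcna1 lie together at 0.98 and 0.97, while those of Sparc spread from -0.29 to 1.33.

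The 29 arrays of the 2 groups varied less than the aged arrays as a whole. The median standard deviation of a probe set was 0.42 log2 units over B arrays and 0.50 over unimpaired arrays, against 0.81 over impaired and 0.83 over visible platform arrays. When the 2 groups were fitted alone, with a residual spread of 0.47 in place of 0.66, 175 probe sets (3.34%) passed the threshold, 85 higher (1.62%) and 90 lower (1.72%) in B rats. By brightest probe set this came to 103 of 3233 genes (3.19%), with 54 higher (1.67%) and 49 lower (1.52%). Once the spike-in level entered the same 29-array fit as covariate, 1 probe set (0.0191%) passed, that of Sparc, and 0 of 3233 genes by brightest probe set (430 at an unadjusted p under 0.05 in limma). Every other call of the 29-array fit given below was lost with the covariate. In the fit of aged arrays without those of low correlation, 87 (1.66%) passed. Gene differences below are those of the 60-array fit, and a gene is said to pass in the 29-array fit only where its adjusted p was under 0.05 there without the covariate.

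The 12 genes with the smallest unadjusted p among those higher in B rats had differences from 0.52 to 1.48 and adjusted p from 0.133 to 0.278, so none passed in the 60-array fit. In the 29-array fit 11 of them passed, all but Syn1. The list is led by Camk2n1, which encodes an inhibitor protein of calcium/calmodulin-dependent kinase II. Its signal ran from 64.5 to 737 with a median of 275 in B arrays and from 14.5 to 263 with a median of 86.5 in unimpaired arrays. The groups overlapped, with 10 B arrays above the highest unimpaired one. The difference was 1.48 ± 0.36 (adjusted p = 0.133), and it was 1.76 with the spike-in covariate in the 29 arrays (adjusted p = 0.0564). Cage control rats, which never swam, had a median of 295, close to that of the B rats. The other Camk2n1 probe set, with medians of 15.4 in B and 19.1 in unimpaired arrays, was too dim to be tested. It differed by -0.09 ± 0.36 when dim probe sets were kept in the fit.

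Kcna1 encodes the voltage-gated potassium channel Kv1.1, which sits in axons and limits repetitive firing. Its brighter probe set ran from 345 to 1383 with a median of 774 in B arrays and from 157 to 709 with a median of 396 in unimpaired arrays. Of the B arrays, 8 lay above every unimpaired array, and 15 of 16 lay above the unimpaired mean. The difference was 0.98 ± 0.26 (adjusted p = 0.21; 0.0157 in the 29-array fit). A second probe set of the gene, with medians of 429 and 202, differed by 0.97 ± 0.31 and had an adjusted p of 0.073 in the 29-array fit.

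Synaptic genes among the 12 were Syn1 and Dlgap4. Syn1 encodes synapsin I, which tethers vesicles to actin in the terminal, and it differed by 0.57 ± 0.18, with medians of 683 and 493 and an adjusted p of 0.0518 in the 29-array fit. Dlgap4 encodes a scaffold protein that binds PSD-95 in the postsynaptic density. It ran from 852 to 3640 with a median of 1924 in B arrays and from 483 to 1696 with a median of 1064 in unimpaired arrays. The groups overlapped, with 11 B arrays above the highest unimpaired one. The difference was 0.86 ± 0.27, and a dimmer probe set of the gene differed by 0.33 ± 0.28.

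Sod3, the extracellular superoxide dismutase, differed by 0.82 ± 0.26, and all 16 B arrays lay above the unimpaired mean. Mitochondrial proteins were encoded by Slc25a23, a calcium-dependent carrier of adenine nucleotides and phosphate in the inner membrane (0.99 ± 0.26), and Ak3, an adenylate kinase of the matrix (0.94 ± 0.28). Dact2, an antagonist of Wnt and transforming growth factor signalling, had a median of 453 in B and 219 in unimpaired arrays, and 13 B arrays were above the highest unimpaired one (1.12 ± 0.29; adjusted p = 0.00556 in the 29-array fit). The rest were Taf10, a subunit of the general transcription factor TFIID (0.79 ± 0.24), Rassf2, a Ras-association domain protein (0.74 ± 0.23), Rpl41, a protein of the large ribosomal subunit (0.58 ± 0.17), and Pip4p1, a phosphoinositide phosphatase (0.52 ± 0.17).

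The 12 genes with the smallest unadjusted p among those lower in B rats differed by -1.12 to -0.44, with adjusted p from 0.215 to 0.274, and all 12 passed in the 29-array fit. Rps24, a protein of the small ribosomal subunit, had a median of 167 in B and 282 in unimpaired arrays and differed by -1.12 ± 0.31. Casp2, an initiator caspase, ran from 16.5 to 244 with a median of 143 in B arrays and from 67.5 to 546 with a median of 272 in unimpaired arrays. All 16 B arrays lay below the unimpaired mean, and 4 below the lowest unimpaired array. The Casp2 difference was -1.08 ± 0.29, and a second tested probe set differed by -0.54 ± 0.32.

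Dpysl2 encodes CRMP2, which binds tubulin and acts downstream of semaphorin 3A. It had a median of 64.2 in B and 153 in unimpaired arrays, with 10 B arrays below the lowest unimpaired one (-1.05 ± 0.29). Stmn4, a neuronal stathmin that destabilises microtubules, ran from 535 to 1261 in B and from 799 to 1757 in unimpaired arrays, with medians of 759 and 1211 (-0.64 ± 0.18). Cdh2, or N-cadherin, an adhesion protein of synapses, had medians of 131 and 239 and differed by -0.87 ± 0.27.

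Atp5if1 encodes the inhibitor of the mitochondrial ATP synthase. Its brightest probe set ran from 834 to 2315 with a median of 1498 in B arrays, and from 1489 to 3914 with a median of 2544 in unimpaired arrays. All 16 B arrays were below the unimpaired mean and 7 below the lowest unimpaired array. The difference was -0.80 ± 0.24 (adjusted p = 0.267; 0.0128 in the 29-array fit), and a second probe set, at medians of 566 and 885, differed by -0.62 ± 0.18. A further one, with medians of 148 and 146, differed by -0.20 ± 0.26. Yoked, visible platform and impaired rats had medians of 1566, 1772 and 1792 at the brightest probe set, and cage controls 2410.

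Also on the lower side were Xrcc5, the Ku80 subunit that binds DNA ends in repair (-0.83 ± 0.24), Marchf8, a membrane-bound ubiquitin ligase (-0.74 ± 0.21), Tap1, a peptide transporter that loads class I histocompatibility molecules (-0.62 ± 0.19), Rbl2, a relative of the retinoblastoma protein (-0.57 ± 0.17), and Glod4, a glyoxalase domain protein (-0.44 ± 0.14). At Marchf8, 11 of 16 B arrays lay below the lowest unimpaired array. With the spike-in covariate in the 29 arrays 0 of the 24 genes passed, the adjusted p running from 0.0564 to 0.43, and each of the 24 kept its direction.

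**Figure D4:**
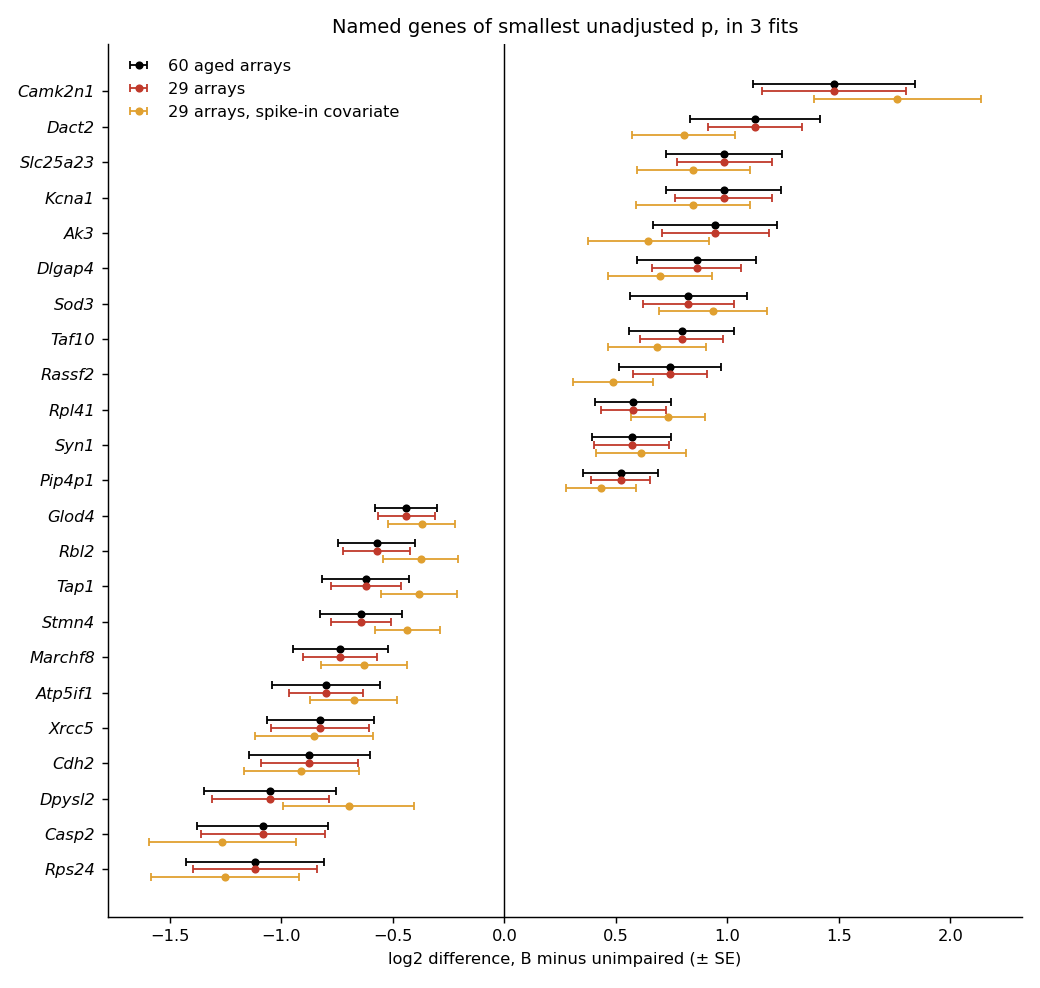
The log2 difference of B minus unimpaired rats (horizontal axis, bars are SE) is shown for named genes of smallest unadjusted p in the fit of 60 aged arrays (black), the fit of the 29 arrays (red) and the latter with the spike-in level as covariate (yellow). Dpysl2 moves from -1.05 to -0.70 with the covariate, while Camk2n1 moves from 1.48 to 1.76.

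Genes read by several probe sets can be compared within the same arrays. The 175 probe sets that passed in the 29-array fit included 138 with a single symbol, from 132 genes, and 57 of these genes had another tested probe set. Of 86 further probe sets of these genes that did not pass, 63 (73.3%) differed in the same direction as the called one. They read the same RNA on the arrays that chose the called sets, so this is no independent check. The share among genes without a call is not given.

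At 6 genes more than 1 probe set passed in the 29-array fit, and these were named after their values were seen. With the spike-in covariate 0 of the 12 probe sets passed. Lower in B rats were Atp2b1, a calcium pump of the plasma membrane (-1.57 ± 0.43 and -0.90 ± 0.23 in that fit), Jun, a subunit of the AP-1 transcription factor (-0.95 ± 0.27 and -0.71 ± 0.19), Canx and Atp5if1. The brightest probe sets of Atp2b1 and Jun did not pass and differed by -0.32 ± 0.22 and -0.08 ± 0.27 in that fit. Canx encodes calnexin, a chaperone for glycoproteins in the endoplasmic reticulum. Its brightest probe set had medians of 5735 in B and 9115 in unimpaired arrays and its second one of 2011 and 2996, and in the 29-array fit they differed by -0.66 ± 0.14 and -0.79 ± 0.20, while its 2 dimmer sets differed by -0.17 ± 0.18 and -0.20 ± 0.16. Higher in B rats were Capns1, the small subunit of calpain (0.53 ± 0.15 and 0.51 ± 0.14, but 0.04 ± 0.12 at its brightest probe set), and Snd1, a nuclease-domain protein involved in RNA handling (0.54 ± 0.15 and 0.43 ± 0.11).

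Pathway lists are described by counts and medians beside those of all 3233 genes, of which 1696 (52.5%) were higher in B rats, with a median difference of 0.02. By their brightest probe sets, 0 list members passed in the 60-array limma fit, where 217 of all genes had an unadjusted p under 0.05. Of 39 lists, chaperones had the lowest median, -0.19: 27 of 34 measured genes were lower in B rats, 1 of them with an unadjusted p under 0.05. That gene was Canx, and the next by p were Ppid, a cyclophilin that works with Hsp90 (-0.38 ± 0.20), Grpel1, the nucleotide exchange factor of mitochondrial Hsp70 (-0.34 ± 0.19), and Pdia4, a disulfide isomerase of the endoplasmic reticulum (-0.38 ± 0.23). Grpel1 was below the unimpaired mean in all 16 B arrays. Hsp90ab1, a further member, differed by -0.27 ± 0.29 at its brightest probe set. Its other tested probe sets went the other way, by 0.10 ± 0.30, 0.23 ± 0.45 and 0.86 ± 0.36. The last of these passed as higher in the 29-array fit (adjusted p = 0.0435), with all 16 B arrays above the unimpaired mean. The median of the chaperone list was -0.16, -0.24 and -0.16 within the 3 runs of animal numbers and -0.19 with the spike-in covariate in the 29 arrays.

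Subunits and regulators of oxidative phosphorylation had a median of -0.14, with 33 of 46 genes lower and 13 higher in B rats. Of the 46, 5 were lower with an unadjusted p under 0.05 and 0 higher, where 2.29% and 4.42% of all genes were. In the 29-array fit 5 of the 46 passed, all lower, where 1.52% of all genes passed as lower, and with the spike-in covariate 0 did. Of the 5, Atp5po and Cox5b were named after their values were seen. The 5 were Atp5if1, Ndufb3 of complex I (-0.55 ± 0.22), Atp5po of the ATP synthase (-0.47 ± 0.33), and Cox5b and Cox8a of cytochrome oxidase (-0.41 ± 0.26 and -0.36 ± 0.30). The last of these had medians of 15523 in B and 20786 in unimpaired arrays. Uqcrc2 of complex III differed by -0.66 ± 0.24 and Ndufa8 of complex I by -0.53 ± 0.22, without passing in the 29-array fit. The list median was -0.26 and -0.27 in the low and high number runs and -0.01 in the middle run.

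Antioxidant enzymes had a median of -0.11, with 21 of 31 genes lower. Sod3 stood at the high end, and the glutathione transferase Gstt2 (-0.90 ± 0.29) and catalase, Cat (-0.66 ± 0.27), at the low end. In the 29-array fit Sod3 passed as higher, and Gstt2 and Prdx6, a peroxiredoxin (-0.45 ± 0.24), as lower. The other tested probe sets of Prdx6 differed by -0.41 ± 0.32 and 0.08 ± 0.27, and that of Cat by 0.15 ± 0.24.

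Genes of the synaptic vesicle leaned the other way, with 20 of 29 higher in B rats and a median of 0.10, and none passed in the 29-array fit. After Syn1 came Nrxn3, a presynaptic neurexin (0.51 ± 0.19), Syt5, a synaptotagmin (0.56 ± 0.30), and Syn2, synapsin II (0.72 ± 0.38). Syt5 lay above the unimpaired mean in all 16 B arrays. Syp, which encodes the vesicle protein synaptophysin, differed by 0.45 ± 0.24, with medians of 3053 and 2208, and Snap25, a fusion protein of the terminal, by 0.04 ± 0.29.

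Ion channels had a median of 0.05, with 20 of 34 genes higher. All 4 with an unadjusted p under 0.05 were higher in B rats, where 4.42% of all genes were higher and 2.29% lower. After Kcna1 these were Kcnd3, the A-type potassium channel Kv4.3 (0.87 ± 0.32), Cacnb2, a beta subunit of calcium channels (0.51 ± 0.22), and Cacna1h, the T-type calcium channel Cav3.2 (0.60 ± 0.28). Kcna1 and Cacnb2 passed in the 29-array fit, where 1.67% of all genes passed as higher. At Cacnb2, with medians of 2067 and 1352, 12 of 16 B arrays were above the highest unimpaired array, and its difference was 0.26 with the spike-in covariate in the 29 arrays (adjusted p = 0.316). Its other tested probe set differed by 0.24 ± 0.25.

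By brightest probe set, 0 of the glutamate and GABA receptor genes passed in the 60-array or the 29-array fit. Of 7 AMPA and kainate receptor genes 6 were higher, led by Grik5, a high-affinity kainate subunit (0.40 ± 0.17), while Gria1 and Gria2, the main AMPA subunits of CA1, differed by -0.22 ± 0.45 and 0.17 ± 0.27. A second Gria2 probe set, with medians of 326 and 555, differed by -0.64 ± 0.30. NMDA receptor genes had a median of -0.12, and Grin1, the obligatory subunit, differed by -0.44 ± 0.30. Among 13 GABA and glycine receptor genes, Gabrd, the delta subunit of extrasynaptic receptors, had an unadjusted p under 0.05 (0.50 ± 0.22), while its other tested probe set was on the lower side in B rats.

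Interneuron and peptide genes included Npy, neuropeptide Y, with medians of 754 in B and 503 in unimpaired arrays (0.50 ± 0.20), and Tac3, neurokinin B, with medians of 495 and 331 (0.66 ± 0.21). The groups overlapped at each gene, and neither passed in the 29-array fit (adjusted p = 0.0712 and 0.0518). Gad1, the GABA-synthesising enzyme of interneurons, differed by -0.07 ± 0.17, and Sst, somatostatin, by 0.13 ± 0.23. A second tested Sst probe set differed by -0.49 ± 0.30. Of 18 insulin and insulin-like growth factor genes, 14 were higher, led by the insulin receptor Insr (0.77 ± 0.28) and the binding protein Igfbp3 (0.76 ± 0.32), with 0 past the threshold in the 29-array fit.

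Cytoskeletal and axonal genes were split, with 21 of 38 higher and a median of 0.01. In the 29-array fit Pfn1, the actin-binding profilin (0.79 ± 0.29), and Basp1, a growth-cone membrane protein (0.71 ± 0.27), passed as higher. The genes Dpysl2, Stmn4 and Tubb2b, a beta-tubulin (-0.50 ± 0.24), passed as lower. Basp1 had medians of 6717 in B and 3686 in unimpaired arrays, and 9 B arrays were above the highest unimpaired one. Map2, the dendritic microtubule protein, differed by -0.25 ± 0.24.

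Ribosomal protein genes were split as well, with 19 of 36 higher and a median of 0.01. Rpl41 and Rps10 (0.66 ± 0.32) passed as higher in the 29-array fit and Rps24 and Rpl23 (-0.72 ± 0.32) as lower. Rpl23 ran from 9218 to 24757 in B and from 15506 to 41739 in unimpaired arrays, with medians of 12087 and 19426, and 14 of 16 B arrays were below the lowest unimpaired array. Its difference was -0.33 with the spike-in covariate (adjusted p = 0.116), and a dimmer Rpl23 probe set, with medians of 765 and 701, differed by 0.13 ± 0.29. Among 27 genes of splicing and translation, 18 were higher, with a median of 0.12. That median was -0.02 with the spike-in covariate in the 29 arrays. It was -0.11, 0.002 and 0.25 within the low, middle and high runs of animal numbers. Eef1a2, the neuronal elongation factor (1.03 ± 0.36), and Eif4ebp1, the repressor of cap-dependent initiation (0.61 ± 0.23), passed as higher in the 29-array fit. So did Snrpb, a core protein of the spliceosome (0.47 ± 0.20). The other tested probe sets of Eif4ebp1 differed by 0.13 ± 0.21 and 0.02 ± 0.42.

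Of 27 astrocyte genes 18 were lower, with a median of -0.06 that was 0.04 in the low number run, and Apoe, Sparcl1 and Prdx6 passed in the 29-array fit. Apoe, the lipid carrier that astrocytes secrete, had medians of 19909 in B and 32032 in unimpaired arrays and differed by -0.49 ± 0.31, or by -0.17 with the spike-in covariate, and its other tested probe set by -0.25 ± 0.38. Sparcl1, a synapse-organising relative of Sparc, had medians of 11494 and 15342 (-0.49 ± 0.29). Myelin genes had 11 of 16 lower, led in size by Mbp, myelin basic protein, with medians of 3016 and 4822 (-0.70 ± 0.51), and Mobp, a further myelin protein, with medians of 5004 and 6409 (-0.45 ± 0.30).

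The summed signal of the 4 measured oligodendrocyte markers ran from 4874 to 15191 in B and from 8844 to 18989 in unimpaired arrays, with medians of 9057 and 11306. That of the 3 astrocyte markers had medians of 5297 and 6128, and that of the 2 microglial markers 1204 and 922, again with overlapping ranges. The part of cell composition in the glial values was not tested. Complement and microglial genes were evenly divided, with 12 of 25 higher, and C1qb and C3, both of the complement cascade, differed by 0.04 ± 0.25 and -0.44 ± 0.28.

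**Figure D5:**
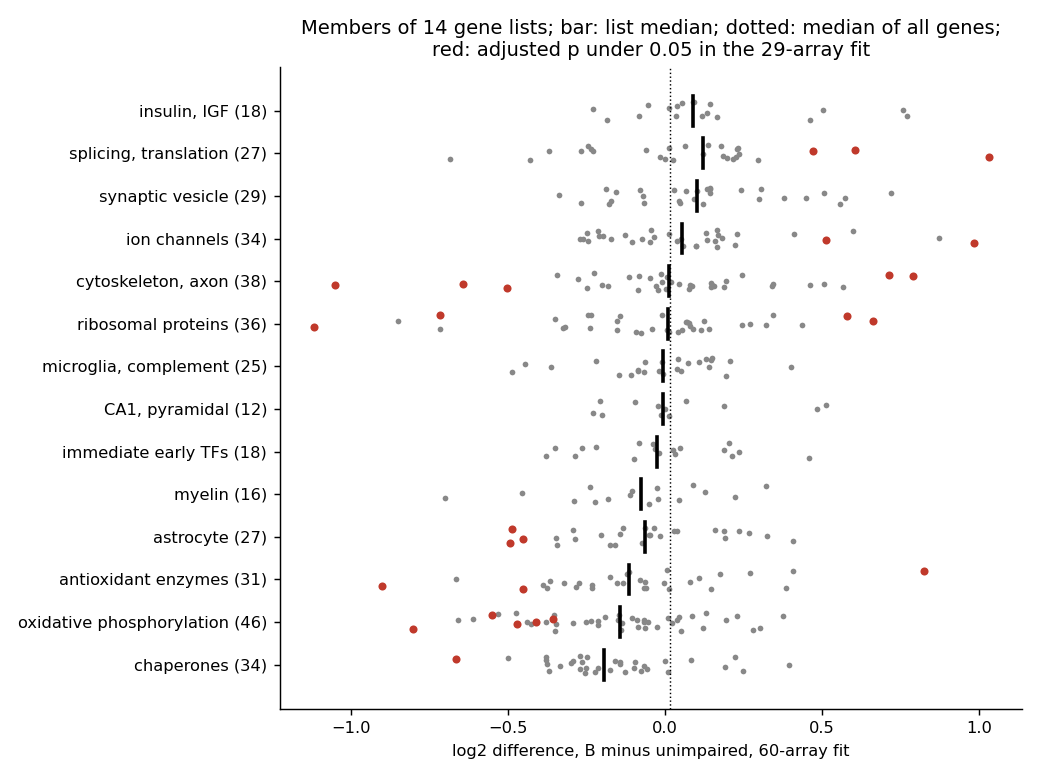
Each point is 1 gene of 14 lists, placed by its log2 difference of B minus unimpaired rats (horizontal axis, 60-array fit), with the number measured in brackets, the list median as a bar, the median of all genes as a dotted line, and red points for genes past the threshold in the 29-array fit. Of the 14 lists shown, chaperones and oxidative phosphorylation have the lowest medians, -0.19 and -0.14, and their members overlap those of every other list shown.

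Of the genes induced by neuronal activity that are named here, 0 passed in the 60-array fit through their brightest probe set, which does not show that their levels were equal. Arc, which controls AMPA receptor uptake, had medians of 2810 in B and 2579 in unimpaired arrays (0.10 ± 0.23). Fos differed by 0.05 ± 0.23, Nr4a1 by 0.24 ± 0.21 and Bdnf by 0.42 ± 0.28, with a second Bdnf probe set at -0.40 ± 0.25. Egr1, a transcription factor with high resting levels in CA1, had medians of 13372 and 16208 and differed by -0.35 ± 0.28, with 14 of 16 B arrays below the unimpaired mean. Its other tested probe sets differed by 0.07 ± 0.27, -0.34 ± 0.30 and 0.10 ± 0.25. Junb differed by 0.46 ± 0.21. Of 18 immediate early transcription factors 8 were higher and 10 lower, with a median of -0.03. Homer1, a postsynaptic scaffold with a short activity-induced form, differed by -0.42 ± 0.25. Its other tested probe sets were lower as well, except the dimmest (0.64 ± 0.36). Gadd45a, a stress-induced regulator of growth and DNA repair, differed by -0.48 ± 0.22 at its brightest probe set and by -1.31 ± 0.41 at a dimmer one, which passed in the 29-array fit (adjusted p = 0.0313).

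The receptors for corticosterone, which governs stress responses in the hippocampus, differed by 0.22 ± 0.18 (Nr3c1) and -0.26 ± 0.23 (Nr3c2). Crhbp, a secreted protein that binds corticotropin-releasing hormone, had medians of 180 in B and 298 in unimpaired arrays (-0.63 ± 0.26).

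A set of 5 genes with large differences between impaired and unimpaired rats was used to place the B rats, although impaired minus unimpaired called 0 of 5244 probe sets in the same limma fit (979 at an unadjusted p under 0.05). They had been picked from earlier results on these arrays, and both comparisons use the unimpaired arrays, so the values are only set side by side. Plagl1, a zinc-finger transcription factor, differed by 0.40 ± 0.33 in B and by 1.40 ± 0.37 in impaired rats against unimpaired ones. Rgn, or regucalcin, differed by 0.05 ± 0.27 and 1.20 ± 0.30, and Rpl6, a ribosomal protein, by 0.07 ± 0.28 and -1.22 ± 0.32. Ldhb, a lactate dehydrogenase subunit, differed by 0.01 ± 0.18 and -0.83 ± 0.21, and Pola2, a subunit of DNA polymerase alpha, by 0.29 ± 0.26 and 1.13 ± 0.29. The adjusted p of impaired against unimpaired rats was 0.134 at each of the 5. At these 5 genes the B medians were 90.3, 84.5, 4178, 7319 and 94.1, and the unimpaired medians 79.3, 87.4, 4402, 7189 and 75.6. Impaired arrays 83 and 8 had a median Spearman correlation with the other arrays of only 0.22 and 0.45, and both enter the impaired values.

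Against the impaired rats the B rats differed at 629 of 5244 probe sets (12%) in the same fit. Impaired arrays 83 and 8, of low correlation, enter this count and the values below, and no count without them is given. The Sparc, Ina and unnamed probe sets differed between B and impaired rats by 1.57, 1.64 and -1.16 (adjusted p = 1.2e-05, 0.000451 and 0.00376), and between impaired and unimpaired rats by -0.25, -0.41 and 0.03. These probe sets had been chosen by their difference between B and unimpaired rats, and the same B arrays enter the comparison with impaired rats. The values are therefore only set side by side and are no independent check. Dlgap4 and Casp2, also chosen by their difference from unimpaired rats, differed by 1.56 and -1.28 between B and impaired rats (adjusted p = 0.00073 and 0.00911).

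The animal numbers in the titles fall into 3 runs that hold both groups, which the labels do not call batches: 4 to 21 with 8 B and 5 unimpaired arrays, 41 to 54 with 3 and 5, and 81 to 91 with 5 and 3. All 24 genes of smallest p had the same direction in each run. Of the 175 probe sets that passed in the 29-array fit 171 did so, where 34.6% of all tested probe sets did, but the runs are parts of the arrays that chose these sets. Within the runs 75, 0 and 0 probe sets passed, and 254 passed with the run as a block. A test of whether the group difference itself differed between runs called 0 of 5244 probe sets in limma, with 515 at an unadjusted p under 0.05. The runs do not follow the order in which the series lists its samples. In that order every B array except 10 and 82 comes after all unimpaired and all impaired arrays. Group and order can therefore hardly be told apart. B array 82 was the lowest of its group at the Sparc probe set, and array 10 at that of Ina. These arrays were the highest at the unnamed probe set, at 949 and 476. The labels do not say what the order stands for, and its part in the differences was not tested.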

How the data were processed

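Total RNA of CA1 punches was amplified, labelled and hybridised to Affymetrix rat arrays, 1 per animal. The deposited intensity values are linear, and the submitters' processing notes name MAS5 as the authors' software; the trimmed mean of each array was 500, so arrays had been scaled before deposit. A MAS5 signal depends on array-wide scaling and on the probes' position in the transcript, and doubly amplified RNA favours the 3' end. Scan settings and a genome build were not stated.

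Of 8740 probe sets that were not controls, 7006 had 1 symbol in the platform annotation, 308 several and 1426 none. The dimmest 40% by mean signal across the 79 arrays were dropped (5244 kept), and log2(signal + 15) was tested with limma 3.58.1 in R 4.3.3 (lmFit, eBayes with trend, two-sided, Benjamini-Hochberg over all probe sets) on the 60 aged arrays with 1 mean per group. The fit was also run on simulated data with independent normal noise and, at each probe set, the same spread in all groups. The uneven quality and spread of the real arrays were not simulated. No 2 arrays held identical values. Replicates are separate animals; their number limits the precision.

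Genes were represented by their brightest tested probe set. Where fewer than 5 passed in a direction, the 12 of smallest unadjusted p were named as values only, with 4 members of smallest p and the brightest of each list, and genes fixed by name; 1 of these genes is not reported here. The groups compared and all lists were chosen with earlier results of these data known. Alternatives were pseudocounts, filters, scalings, variance models, array weights, covariates, other sets of arrays, number runs, other probe sets and single omissions. Chosen after seeing the data were the 29 arrays with the spike-in covariate, without array 81, and without the 5 of lowest correlation.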

Additional observations from a re-analysis of the deposited data

How the results depend on the processing

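The count of 3 probe sets past the threshold stayed at 3 with pseudocounts of 1 or 60, with no filter, with the lowest 60% left out and with eBayes without trend, and was 2 over all 79 arrays. It was 1 after quantile normalization or median centring, and 13 when the 3'/5' balance of the control transcripts entered as covariate. It was 436 with array quality weights, 87 without the arrays of low correlation and 140 without those of high disagreement. With the 29 arrays alone it was 175, with the number run as a block 254, and within the low, middle and high runs 75, 0 and 0 (838, 515 and 516 at an unadjusted p under 0.05). Chosen after seeing the data, the 29 arrays gave 1 with the spike-in covariate, 151 without array 81 and 261 without the 5 arrays of lowest correlation. The cause of these shifts was not tested, except that fewer arrays enter the fits within runs. With the spike-in covariate in the 60 arrays 3 passed, of which 1, the Sparc probe set, was among the original 3. Leaving out 1 array in turn gave 1 to 5 calls: 1 without any of unimpaired arrays 7, 15 or 89 or of B arrays 9, 11, 12, 13, 41, 46, 86 or 88, and 5 without B array 10. Sparc passed in 29 of 29 omissions, Ina in 14 and the unnamed probe set in 13. Through its brightest probe set the Sparc difference turned to -0.29. The list medians of chaperones and of oxidative phosphorylation were below 0 in all 48 settings outside the runs, from -0.22 to -0.14 and from -0.19 to -0.08. No paired analysis was possible because the numbers in the titles are those of single animals and no number occurs in both groups. Signal close to background limits the dim genes.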

Other observations

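In further gene lists few members passed in the 29-array fit, and 0 did in the 60-array limma fit or with the spike-in covariate. Of 28 lysosomal and autophagy genes, Gabarap, which conjugates to autophagosome membranes, was higher in B rats (0.68 ± 0.28 in the 60-array fit), and Psap, the precursor of the saposins, was lower (-0.37 ± 0.34). Prkcb, the beta isoform of protein kinase C, was lower (-0.43 ± 0.26), with its other tested probe sets at -0.07 ± 0.30 and -0.31 ± 0.38. Prkce, the epsilon isoform, went the other way, by 0.56 ± 0.34 at its brightest probe set, without passing. Its other tested sets differed by 0.16 ± 0.22, 0.40 ± 0.15 and 0.79 ± 0.29. The last of these passed as higher in the 29-array fit (adjusted p = 0.0157). Pgam1, a glycolytic mutase, was lower at its brightest probe set (-0.42 ± 0.33) although 20 of 32 genes of glucose metabolism were higher. Its other tested probe sets differed by -0.07 ± 0.27 and 0.08 ± 0.24. Atp2b3, a plasma membrane calcium pump, was higher (0.49 ± 0.19), with its other tested probe sets at 0.24 ± 0.19 and -0.02 ± 0.24. Among trophic factors that did not pass, Pdgfa, a platelet-derived growth factor chain, differed by 0.71 ± 0.28 and Vegfa, the vascular growth factor, by -0.50 ± 0.24. Pecam1, an endothelial adhesion protein, differed by -0.72 ± 0.30 without passing. In the lists of proteasome and ubiquitin genes, with 28 members, of cyclic nucleotide signalling, with 24, and of metabotropic glutamate receptors, with 5, 0 members had an unadjusted p under 0.05. Of all genes 6.71% did.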
